A study of Mus musculus with 18 samples.

Results

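The genes described here are Trp53, which encodes the transcription factor p53, and 9 genes that p53 is known to switch on: Mdm2, Cdkn1a, Pmaip1, Bbc3, Bax, Trp53inp1, Phlda3, Ccng1 and Sesn2. They were chosen by gene name, with earlier results of these data known. No measured value is named in the rule, and which values entered the choice is not recorded, so every count over the members is a description and their p-values are not independent of the choice. They were taken from the 54446 gene identifiers of the count tables, and all 10 were found and tested in every comparison. The study examined whether inhibiting the H3K27me3 methyltransferase alters the gene expression changes that follow loss of Mettl14, a subunit of the enzyme that deposits N6-methyladenosine on RNA. Poly(A) RNA was sequenced in 18 libraries from C57BL/6 mouse embryonic stem cells grown for 7 days in embryoid body medium on low-attachment plates. In the Mettl14 line these were 3 control libraries, 3 of the conditional knockout (CKO) and 3 of the CKO with 5 µM GSK343, an inhibitor of the H3K27 methyltransferase EZH2. In the Mettl3 line, which concerns the catalytic subunit of the same RNA methyltransferase, they were 3 control libraries, 3 of the CKO and 3 of the CKO with 5 µM GSK-J4, an inhibitor of the H3K27 demethylases of the KDM6 family. The protocol gives DMSO as the vehicle of the CKO cells and names no treatment for the controls. Neither the Cre that deleted the alleles nor the number of clones is stated in the labels. No control line received an inhibitor, each inhibitor was used in 1 line, and nothing in the labels says that replicates came from separate cultures, so p-values measure the spread between these libraries, which may be technical.

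p53 is held at a low level in unstressed cells by Mdm2, a ubiquitin ligase that marks it for degradation and is itself a p53 target, so the pair forms a negative feedback loop. When p53 is stabilised it raises transcription of genes for cell cycle arrest, such as Cdkn1a, of proapoptotic members of the BCL-2 family, such as Pmaip1, Bbc3 and Bax, and of genes for metabolism and stress control, such as Sesn2 and Trp53inp1. Because p53 is controlled mainly through protein stability, the level of its own mRNA need not follow its activity.

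The RefSeq promoter windows (GRCm38.p6) of the members were searched for the p53 half-site consensus, a run of 10 bases made of 3 purines, a C, 2 bases that are A or T, a G and 3 pyrimidines. It is its own reverse complement, so that 1 scan reads both strands. A window spans 250 bases before to 50 bases after the annotated start, and 8 of the 10 members had one. At least 1 match was present in 5 of these 8 genes (62.5%) and in 2582 of all 27025 genes with a window (9.55%). Cdkn1a held 2 matches in the window of its first start, as did 106 genes in all (0.392%). The stretches below run from 220 to 31 bases before the start on the gene's strand, with the matches in capitals. They are shown for Mdm2, the member with the smallest p with GSK-J4, for Cdkn1a with its pair of matches, and for Ccng1, the member with the highest median per kilobase of exon.
Mdm2, chr10:117710789-117710978, minus strand: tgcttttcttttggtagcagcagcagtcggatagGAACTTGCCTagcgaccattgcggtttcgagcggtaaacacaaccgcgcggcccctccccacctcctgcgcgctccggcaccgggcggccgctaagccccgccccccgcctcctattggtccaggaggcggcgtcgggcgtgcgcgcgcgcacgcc
Cdkn1a, chr17:29090759-29090948, plus strand: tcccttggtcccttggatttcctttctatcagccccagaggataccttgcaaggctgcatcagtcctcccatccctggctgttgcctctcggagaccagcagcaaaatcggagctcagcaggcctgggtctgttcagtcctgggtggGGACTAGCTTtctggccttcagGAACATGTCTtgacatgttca
Ccng1, chr11:40755317-40755506, minus strand: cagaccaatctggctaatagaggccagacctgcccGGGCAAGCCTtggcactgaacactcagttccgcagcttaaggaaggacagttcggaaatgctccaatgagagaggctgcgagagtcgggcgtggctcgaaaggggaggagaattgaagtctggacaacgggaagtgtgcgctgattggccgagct
Trp53 itself held the match GGACTTGCCC from 75 to 66 bases before its start, and Bax held AGGCAAGCTT from 201 to 192 bases before its start. No match was found in the windows of Bbc3, Phlda3 and Sesn2, which says only that these letters are not in those windows. A match is a description of the sequence, and binding was not measured.

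Library totals ran from 721853 to 32540164 counts. The shallowest were GSK343 replicate 3, with 721853 counts, and Mettl14 CKO replicate 3, with 1303697. In the Mettl3 line the GSK-J4 libraries held 3395675 to 8289423 counts. The untreated CKO held 17544904 to 32540164 and the controls 21615674 to 29496824, so lower depth went with treatment there. Counts of 0 with GSK-J4 given below come from these shallower libraries. The 3 libraries with GSK-J4 differed from the other 15 as a set: mitochondrially encoded mRNA made up 0.112 to 0.244% of their counts against 1.29 to 3.24%, and the summed level of 12 mesenchyme and fibroblast markers was 11110 to 19390 CPM (counts scaled to a common library total) against 36530 to 51470 CPM. Of the 12 markers, 11 passed the test as lower against the untreated CKO, all but Fn1. Over all genes tested, 9.07% passed as lower. The 8 pluripotent cell markers summed to 21.7 to 157 CPM over all 18 libraries, so mesenchyme genes and not pluripotency genes were abundant in these embryoid bodies. Fewer cells of a type and less RNA per cell cannot be told apart in such bulk samples, and the part of these differences in the results below was not tested. The targeted genes did not check the labels. Mettl14 was at 17.8, 19.0 and 17.8 CPM in its controls and 17.0, 24.5 and 19.9 CPM in its CKO, and Mettl3 at 20.2, 34.0 and 19.0 CPM in its controls and 26.5, 6.92 and 18.2 CPM in its CKO. A whole-gene count includes exons outside a deleted part.

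All 10 members had a higher mean with GSK-J4 than in the untreated Mettl3 CKO, and 6 of the 10 passed the test as higher: Mdm2, Bbc3, Sesn2, Trp53inp1, Phlda3 and Pmaip1. Over all 16782 genes tested, 3.96% were called higher, 9.07% lower and 13.0% were called in either direction at a Benjamini-Hochberg adjusted p under 0.05 in edgeR's quasi-likelihood test. In 9 of the 10 members, all but Trp53, the 3 GSK-J4 libraries lay above the 3 untreated ones, as in 9.48% of all genes. The median log2 fold change was 1.11 over the members and -0.06 over all genes. The members were chosen with results of these data known, so these counts describe the list and support nothing beyond it. With library totals in place of TMM scaling the median over all genes moved to 0.19 and that of the members to 1.35, and the share of calls that were higher went from 30.4% to 49.0%, with 36.1% under DESeq2's size factors and 42.4% by DESeq2. Levels are TMM-scaled CPM unless library totals are named, TMM being a scaling of library totals to a common set of genes.

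**Figure D1:**
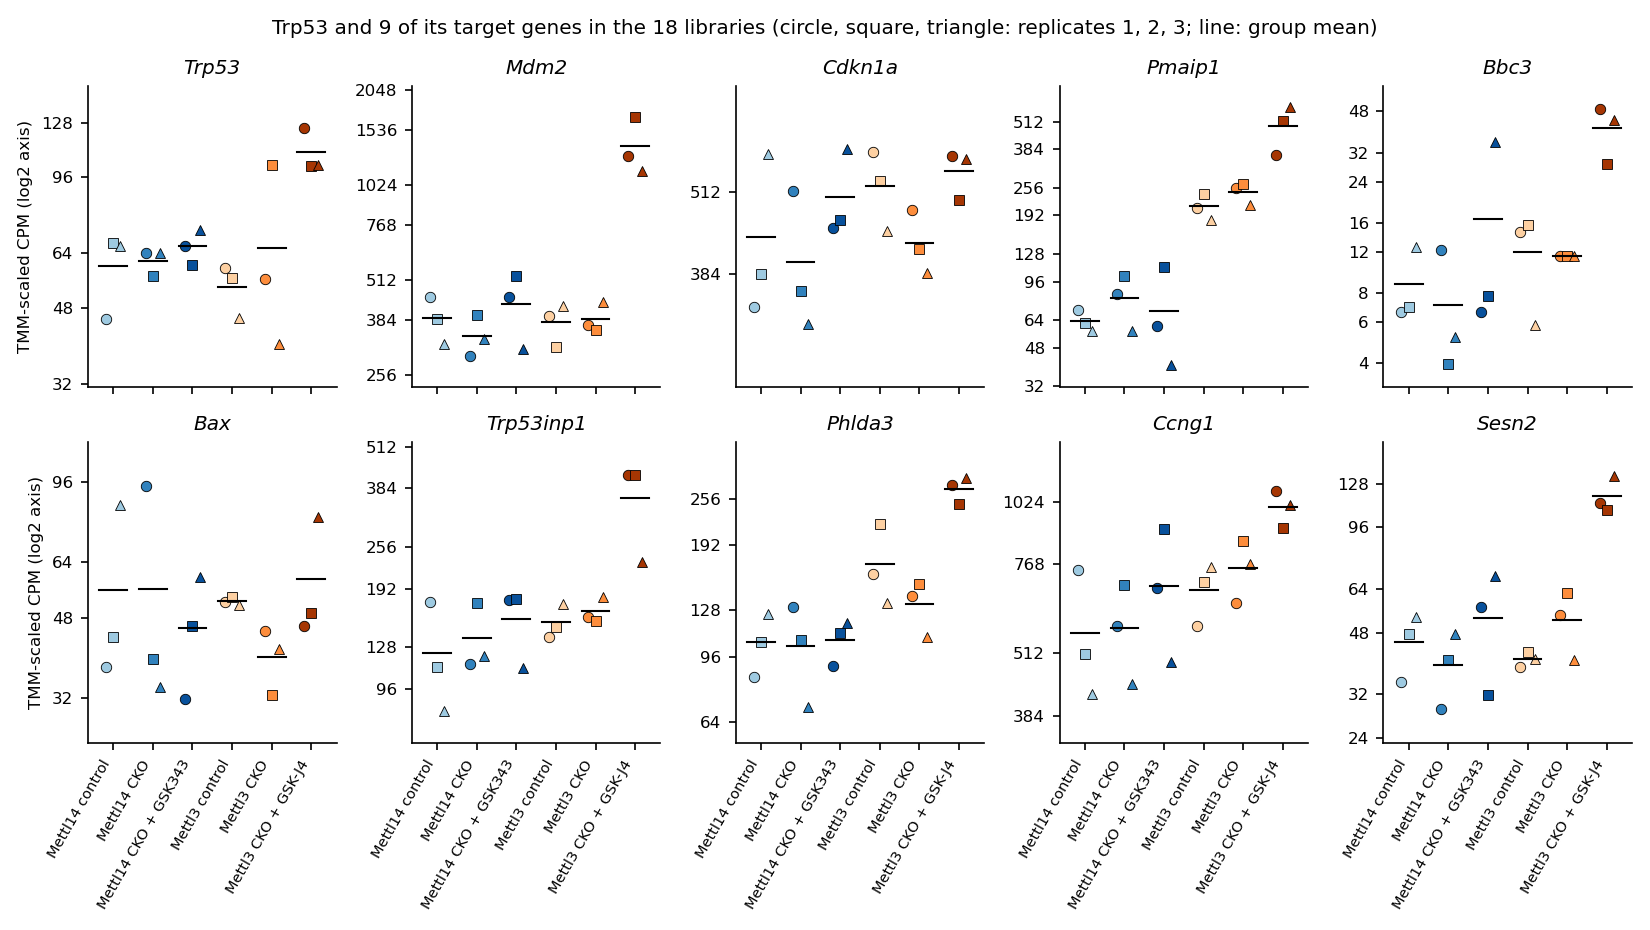
Level of each member in TMM-scaled CPM (log2 axis, own scale per panel) in the 3 libraries of each of the 6 groups, with circles, squares and triangles for replicates 1, 2 and 3 and a line for the group mean. The GSK-J4 group has the highest mean in all 10 panels, and in 6 of them its 3 libraries lie above all 15 others.

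Trp53 mRNA was at 124, 101 and 102 CPM in the GSK-J4 libraries, at 55.9, 102 and 39.5 CPM in the untreated Mettl3 CKO, and at 59.1, 56.3 and 45.4 CPM in the Mettl3 controls. One untreated CKO library, replicate 2, reached the level of the treated ones, so the groups overlapped. The log2 fold change against the CKO was 0.82 ± 0.33 (SE) and did not pass the test (adjusted p = 0.128). Against the controls, which did not overlap with the treated libraries, it was 1.10 ± 0.33 (adjusted p = 0.0539). In the 9 libraries of the Mettl14 line Trp53 ranged from 45.2 to 72.5 CPM with a median of 64.1, and the lines overlapped. The gene lies at chr11:69580359-69591873 on the plus strand (mm10), as do all coordinates of whole genes given here.

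Mdm2 (chr10:117688875-117710758, minus strand), the ubiquitin ligase of the feedback loop, had the smallest p of the 10, and its change and that of Bbc3 could not be ranked. It was at 1269.9, 1692 and 1141 CPM in the GSK-J4 libraries, at 368, 355 and 437 CPM in the untreated Mettl3 CKO, and at 395, 316 and 423 CPM in the Mettl3 controls. The Mettl14 line gave 455, 387 and 323 CPM in controls, 295, 397 and 333 CPM in the CKO, and 452, 528 and 309 CPM with GSK343. The lowest GSK-J4 library thus had more Mdm2 than any of the 15 others, and those 15 overlapped from group to group. Mdm2 rose by 1.92 ± 0.20 on the log2 scale against the untreated CKO, a 3.77-fold change (adjusted p = 0.000138). The rise was 1.93 ± 0.20 against the controls (adjusted p = 0.000147), which uses the same 3 treated libraries.

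Mdm4, the partner of Mdm2 that binds and inhibits p53, did not rise with it. It was at 31.9, 49.1 and 15.8 CPM with GSK-J4 and at 54.1, 75.3 and 91.6 CPM in the untreated CKO. The treated libraries were all below the untreated ones, but the log2 difference of -1.09 ± 0.42 did not pass the test (adjusted p = 0.117). Ppm1d, a phosphatase that dampens p53 signalling and is a p53 target, was at 24.0, 55.3 and 16.5 CPM against 22.8, 20.6 and 22.3 CPM, with overlap and no call (adjusted p = 0.417). Cdkn2a, whose ARF product holds Mdm2 away from p53 and whose other product is the cell cycle inhibitor p16, fell by 2.00 on the log2 scale (adjusted p = 0.000423). Its level was 21.6, 31.1 and 34.2 CPM with GSK-J4 against 133, 125 and 111 CPM, and the counts do not separate its products. Of the 19 tested genes on the list of p53 regulators and partners, 1 was called lower, Cdkn2a, and 1 higher. Over all genes 9.07% were called lower and 3.96% higher. The 1 called higher was Trp53bp2, which encodes the p53-binding protein ASPP2 and rose by 0.93 ± 0.26 (adjusted p = 0.0373). The list's median was -0.10.

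Cdkn1a (chr17:29090976-29100727, plus strand) encodes the cyclin-dependent kinase inhibitor p21 and is the classic arrest target of p53. Its level was 583, 498 and 577 CPM in the GSK-J4 libraries, 482, 419 and 385 CPM in the untreated Mettl3 CKO and 591, 533 and 447 CPM in the Mettl3 controls. The treated libraries lay above the CKO and inside the range of the controls. With library totals in place of TMM they lay above the controls too, at 604 to 738 against 436 to 594 CPM, and the change against the controls was 0.41. The log2 fold change was 0.46 ± 0.17 against the CKO (adjusted p = 0.109; 95% interval 0.08 to 0.84) and 0.15 ± 0.17 against the controls (adjusted p = 0.616; 95% interval -0.23 to 0.53). By DESeq2 and with library totals the first of these was called, at adjusted p = 0.0144 and 0.0221. An antisense gene shares 7.68% of the exon bases of Cdkn1a but had 169 counts in all 18 libraries together.

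Of 20 cell cycle genes that p53 is known to repress through p21 and the DREAM complex, 19 were tested with GSK-J4. Against the untreated CKO or the controls 0 were called by edgeR, DESeq2 or limma voom. Over all genes edgeR called 13.0% against the CKO and 11.4% against the controls. Their median log2 change was 0.49 against the untreated CKO and 0.11 against the controls, and their summed level was low throughout: 51.5 to 159.6 CPM with GSK-J4, 65.9 to 108 CPM in the CKO and 88.0 to 123 CPM in the controls. These ranges overlapped.

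Ccng1 (chr11:40748552-40755311, minus strand) encodes cyclin G1, a p53 target that recruits a phosphatase to Mdm2. It was at 1074, 907 and 1010.1 CPM with GSK-J4, at 644, 856 and 770.3 CPM in the untreated CKO and at 580.3, 710.2 and 758 CPM in the controls. The treated libraries were above both groups, by a log2 fold change of 0.49 ± 0.18 against the CKO (adjusted p = 0.0928, but 0.0111 by DESeq2 and 0.0180 with library totals) and 0.62 ± 0.18 against the controls (adjusted p = 0.0428). The second call was lost without any 1 of 5 of the 6 libraries compared, with adjusted p from 0.109 to 0.284, and in 4 of 9 other settings. One Mettl14-line library, GSK343 replicate 2, reached 905 CPM, just under the lowest GSK-J4 library.

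The proapoptotic members differed among themselves. Pmaip1 (chr18:66458533-66465565, plus strand) encodes NOXA and Bbc3 (chr7:16308393-16318205, plus strand) encodes PUMA, both BH3-only proteins that neutralise antiapoptotic BCL-2 proteins. Bax (chr7:45461697-45466898, minus strand) encodes an effector that permeabilises the mitochondrial outer membrane. Pmaip1 was at 361, 516 and 597 CPM with GSK-J4, at 255, 267 and 215 CPM in the untreated CKO and at 209, 242 and 183 CPM in the controls. It rose by 1.09 ± 0.21 on the log2 scale against the CKO (adjusted p = 0.00665) and by 1.29 ± 0.21 against the controls (adjusted p = 0.00275). Bbc3 was at 49.3, 28.6 and 44.1 CPM with GSK-J4, at 11.6, 11.5 and 11.5 CPM in the CKO and at 14.6, 15.7 and 5.86 CPM in the controls. The lowest treated library was thus above all 6 untreated libraries of its line.

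Bbc3 rose by 1.91 ± 0.50 against the CKO (adjusted p = 0.0279), with a 95% interval from 0.82 to 3.00. Its call was lost without any 1 of the 3 CKO libraries (adjusted p 0.113 to 0.126) and without GSK-J4 replicate 1 (adjusted p = 0.0624), while the log2 change was at least 1.60 in each case. Bax was at 46.1, 49.2 and 80.4 CPM with GSK-J4, at 44.9, 32.4 and 41.0 CPM in the CKO and at 52.2, 53.4 and 51.2 CPM in the controls. Its log2 fold change of 0.66 ± 0.29 against the CKO did not pass the test (adjusted p = 0.162), and against the controls the groups overlapped at 0.23 ± 0.29 (adjusted p = 0.648). Replicate 3 was the highest of the treated libraries, and without it the change against the CKO was 0.25.

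Among 13 other BCL-2 family genes 10 were tested with GSK-J4 against the untreated CKO. By edgeR 0 were called higher and 2 lower, where 3.96% of all genes were called higher and 9.07% lower. DESeq2 called 4 and limma voom 1. An unadjusted p under 0.05 was reached by 5 of the 10, in either direction. The share of all genes at that p is not given here, so the 5 are a description only. Bmf, a further BH3-only gene, had 0, 1 and 0 counts in the GSK-J4 libraries against 15.8 to 19.3 CPM in the untreated CKO (adjusted p = 0.000467). Bok, a relative of Bax, had 0 counts in all 3 GSK-J4 libraries, which allows up to 0.362 to 0.883 CPM by library at 3 counts, against 3.12 to 22.8 CPM in the CKO (adjusted p = 0.0038). Such limits cover counting error only.

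Sesn2, Trp53inp1 and Phlda3, the members for stress and metabolic control, all rose against the untreated CKO. Sesn2 (chr4:132492032-132510501, minus strand) encodes sestrin 2, which restrains mTORC1 signalling. It was at 112, 107 and 134 CPM with GSK-J4 against 53.7, 62.1 and 40.1 CPM in the CKO and 38.3, 42.3 and 40.3 CPM in the controls, with no overlap. The rise was 1.27 ± 0.24 on the log2 scale against the CKO (adjusted p = 0.00587) and 1.62 ± 0.24 against the controls (adjusted p = 0.00161). Trp53inp1 (chr4:11156431-11174379, plus strand) encodes a nuclear protein that modifies p53 activity and promotes autophagy. It was at 422.6, 422.6 and 231 CPM with GSK-J4 against 158, 153 and 181 CPM in the CKO and 138, 147 and 173 CPM in the controls. All 3 treated libraries were higher, by 1.23 ± 0.24 against the CKO (adjusted p = 0.00785), and without CKO replicate 2 the adjusted p was 0.0678. Against the controls the rise was 1.31 ± 0.25 (adjusted p = 0.00592).

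Phlda3 (chr1:135766119-135769136, plus strand) encodes a pleckstrin homology domain protein that competes with AKT for membrane lipids. It was at 279, 248 and 291 CPM with GSK-J4 against 140.4, 151 and 109 CPM in the CKO and 161, 219 and 134 CPM in the controls. The treated libraries were above both groups. The rise of 1.13 ± 0.23 on the log2 scale against the CKO passed the test (adjusted p = 0.00808), and the change of 0.74 ± 0.22 against the controls did not (adjusted p = 0.0547). Sesn2, Pmaip1 and Bbc3 are also known targets of the ATF4 and CHOP stress response. Of 18 genes on a list for that response, which holds Sesn2 too, 6 were called higher and 2 lower under GSK-J4 against the CKO, where 3.96% of all genes were higher and 9.07% lower, among them Ddit3, which encodes CHOP, at 381, 347 and 373 CPM against 144, 104 and 80.6 CPM in the CKO, and Atf3 at 124, 45.9 and 53.5 CPM against 22.3, 11.8 and 16.4 CPM. On a list of 9 NRF2 target genes 4 were higher and 1 lower, against the same shares: Hmox1, which encodes heme oxygenase 1, was at 1889, 2181 and 2139.9 CPM against 519, 537 and 394 CPM, and Nqo1 had 0, 28 and 0 counts against 78.6 to 111 CPM. Against the controls the ATF4 list gave 5 higher and 3 lower, and the NRF2 list 2 higher and 1 lower. Over all genes 3.16% were higher and 8.25% lower there. In the untreated CKO against the controls all 9 NRF2 genes had a negative change, as did 8543 of the 16782 genes tested. Hmox1 changed by -0.70 ± 0.17 and Ddit3 by -0.75 ± 0.22, neither called by edgeR. The part of these responses in the members' values was not tested.

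Against the Mettl3 controls in place of the untreated CKO, 6 of the 10 members were again called higher with GSK-J4, where 3.16% of all genes were called higher, 8.25% lower and 11.4% in either direction. These were Mdm2, Sesn2, Bbc3, Trp53inp1, Pmaip1 and Ccng1, and 8 of the 10 lay above the controls with no overlap (9.33% of all genes). Both comparisons use the same 3 treated libraries. Without control replicate 1 the count was 3, Bbc3, Trp53inp1 and Ccng1 losing their calls, and the call of Bbc3 (1.83 ± 0.49, adjusted p = 0.0361) was also lost without control replicate 2 or 3 or GSK-J4 replicate 1. Trp53 and Phlda3, which were not called, were called under 7 and 6 of 9 other settings.

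Neither knockout alone gave a call among the members. In the Mettl14 CKO against its controls, 0 of the 10 were called by edgeR, DESeq2 or limma voom and 0 had an unadjusted p under 0.05, with 0 of all 13882 genes called by edgeR (0%) and 1.50% at that unadjusted p. The members' log2 fold changes ran from -0.20 for Bbc3 to 0.40 for Pmaip1 with a median of 0.04, and all 10 overlapped between the groups, where 2.71% of all genes lay above with no overlap and 5.05% below. In the Mettl3 CKO against its controls, 0 of the 10 were called by edgeR, DESeq2 or limma voom and 0 had an unadjusted p under 0.05, with 0 of 16782 genes called by edgeR (0%) and 1.88% at that unadjusted p. The changes ran from -0.42 ± 0.29 for Bax to 0.35 ± 0.24 for Sesn2 with a median of 0.05. Bax was the 1 member whose CKO libraries all lay below the controls, at 32.4 to 44.9 CPM against 51.2 to 53.4 CPM (5.99% of all genes did so, and 7.03% lay above), and it was not called (adjusted p = 1). For Mdm2 the 95% intervals of the log2 change were -0.64 to 0.35 for the Mettl14 CKO and -0.41 to 0.44 for the Mettl3 CKO. Changes within these bounds are not excluded. The Mettl3-line fit also holds the GSK-J4 libraries. Its common biological coefficient of variation, a measure of spread between replicates, was 0.843 against 0.394 in the Mettl14-line fit. Under 9 other settings 0 to 6 of all genes were called in the Mettl3 CKO. The difference between the knockout effects was called for 0 of the 10 members by edgeR, DESeq2 or limma voom and had an unadjusted p under 0.05 for 0 (0% of 16326 genes called by edgeR, and 2.24% at that unadjusted p).

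**Figure D2:**
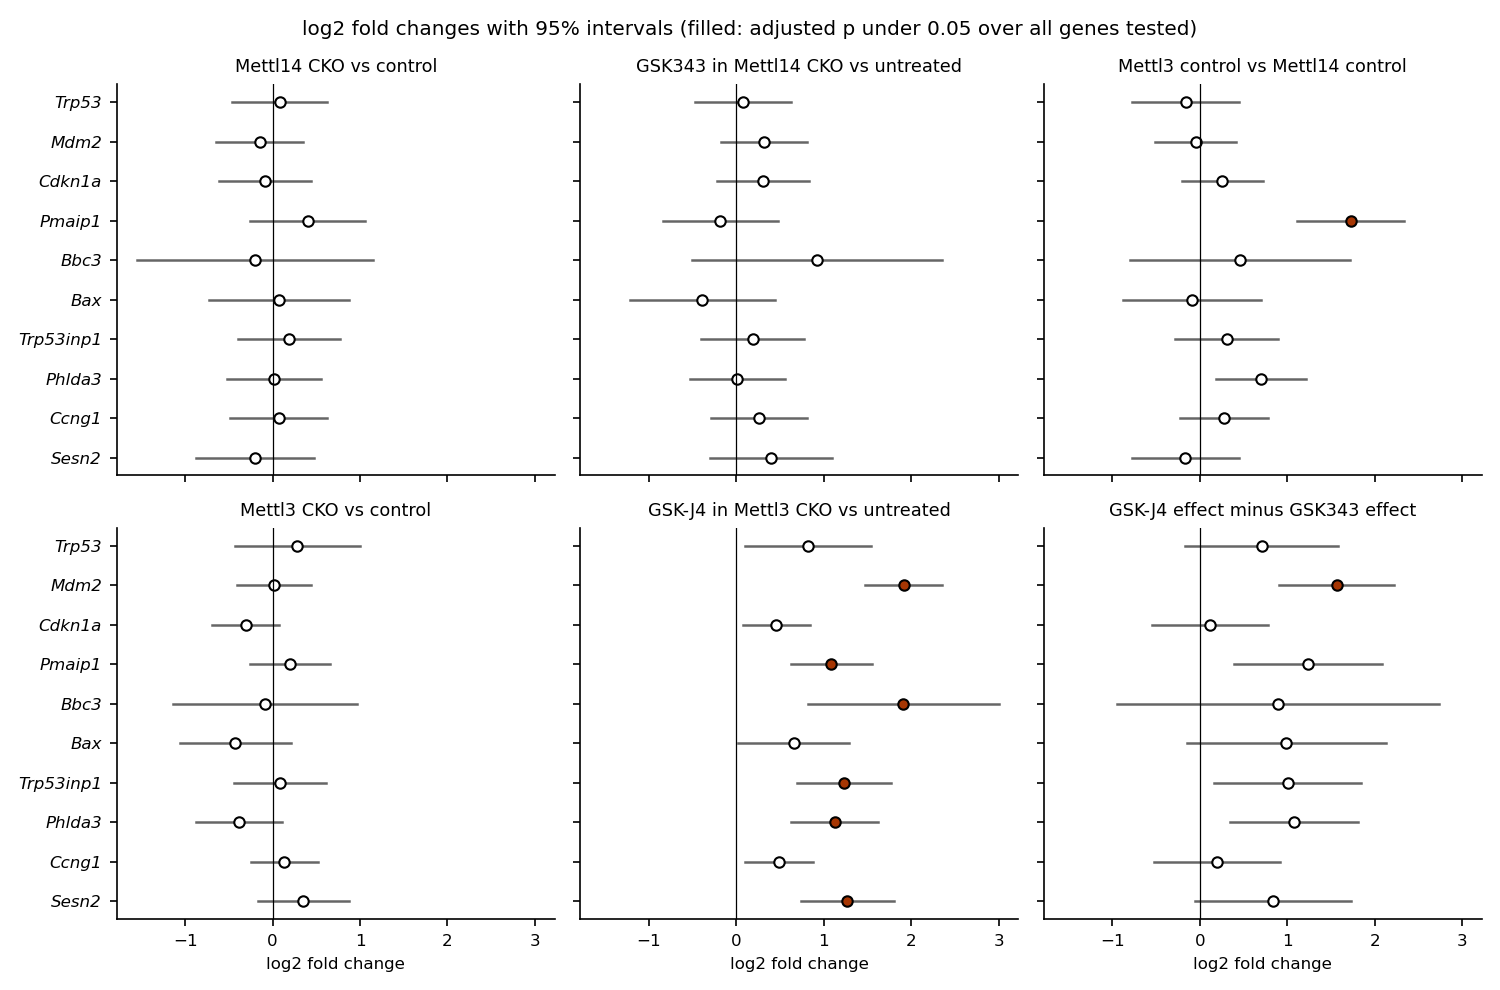
log2 fold change of each member (point) with its 95% interval (line) in 6 comparisons, filled where the adjusted p over all genes was under 0.05. Filled points stand in the GSK-J4 panel (6 members), for Pmaip1 in the panel comparing the controls of the lines, and for Mdm2 in the panel of the difference between inhibitor effects.

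GSK343 in the Mettl14 CKO gave no call among the members either: 0 of 10 by edgeR, DESeq2 or limma voom, and 0 with an unadjusted p under 0.05, where 0.0288% of all genes were called and 5.74% had such a p. The median log2 change was 0.22, against -0.03 over all genes. Mdm2 was at 452, 528 and 309 CPM against 295, 397 and 333 CPM, a difference of 0.32 ± 0.24 (95% interval -0.18 to 0.82). Cdkn1a was at 451, 464 and 598 CPM against 515, 361 and 321 CPM, a difference of 0.31 ± 0.25 (95% interval -0.22 to 0.83). Both overlapped between the groups. Bbc3 had the largest difference, 0.93 ± 0.68, with GSK343 replicate 3 at 35.5 CPM from 24 counts. The other 2 GSK343 libraries were at 6.64 and 7.80 CPM, and without replicate 3 the difference was -0.06. With GSK343 against the Mettl14 controls 0 members were called by edgeR, DESeq2 or limma voom and 0 had an unadjusted p under 0.05 (0.166% of all genes called, 4.34% at that unadjusted p).

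The change with GSK-J4 and the change with GSK343, each against its own untreated CKO, were compared within 1 fit over all 18 libraries. Both inhibitors were given at 5 µM in cultures of 7 days, but in different lines, so that inhibitor and line cannot be told apart. The difference was called for 1 of the 10 members, Mdm2, at 1.57 ± 0.32 on the log2 scale (adjusted p = 0.00237), where 1.92% of all genes were called higher, 8.30% lower and 10.2% in either direction. For Phlda3 the difference was 1.08 ± 0.35 (adjusted p = 0.0542) and for Pmaip1 1.24 ± 0.41 (adjusted p = 0.0577). For Cdkn1a it was 0.12 ± 0.32, with a 95% interval from -0.54 to 0.78, and for Ccng1 0.20 ± 0.35, with an interval from -0.52 to 0.92. Under other settings between 1 and 4 members were called, Mdm2 in each of them. Without Mettl14 CKO replicate 3 the count was 3, and without GSK343 replicate 2 or any 1 of the GSK-J4 libraries it was 2.

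The untreated lines differed in Pmaip1. It was at 209, 242 and 183 CPM in the Mettl3 controls and at 71.6, 62.2 and 57.5 CPM in the Mettl14 controls. The lines did not overlap, and the log2 difference was 1.73 ± 0.29, a 3.31-fold higher level in the Mettl3 line (adjusted p = 0.00252). It was the 1 member called, where 0.913% of all genes were called and 0.153% were called higher. Phlda3 was also higher with no overlap (8.59% of all genes), at 161, 219 and 134 CPM against 84.9, 105 and 125 CPM, but was not called (0.70 ± 0.25, adjusted p = 0.427). Of the 40 other p53 targets, Perp, a desmosome-associated membrane protein gene, and Gadd45a, a stress sensor gene, were called higher in the Mettl3 controls, by 1.72 ± 0.40 (adjusted p = 0.0366) and 1.11 ± 0.20 (adjusted p = 0.00509). Line and any batch that goes with it cannot be told apart.

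Per kilobase of exon, Ccng1 was the most abundant member in the 15 libraries without GSK-J4, with a median of 196 CPM per kb, followed by Cdkn1a at 127, Mdm2 at 76.0 and Phlda3 at 75.9 CPM per kb. Bbc3 was the lowest at 5.41 and Trp53 itself stood at 14.9 CPM per kb. The medians of Mdm2 and Phlda3 did not differ beyond their ranges of 58.0 to 104 and 45.0 to 140.3 CPM per kb. In the 3 GSK-J4 libraries Ccng1 (median 288) and Mdm2 (median 249.8 CPM per kb) led, and Cdkn1a, at 162 CPM per kb, came after Pmaip1 and Phlda3. The ranges of Ccng1 and Mdm2 overlapped there.

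**Figure D3:**
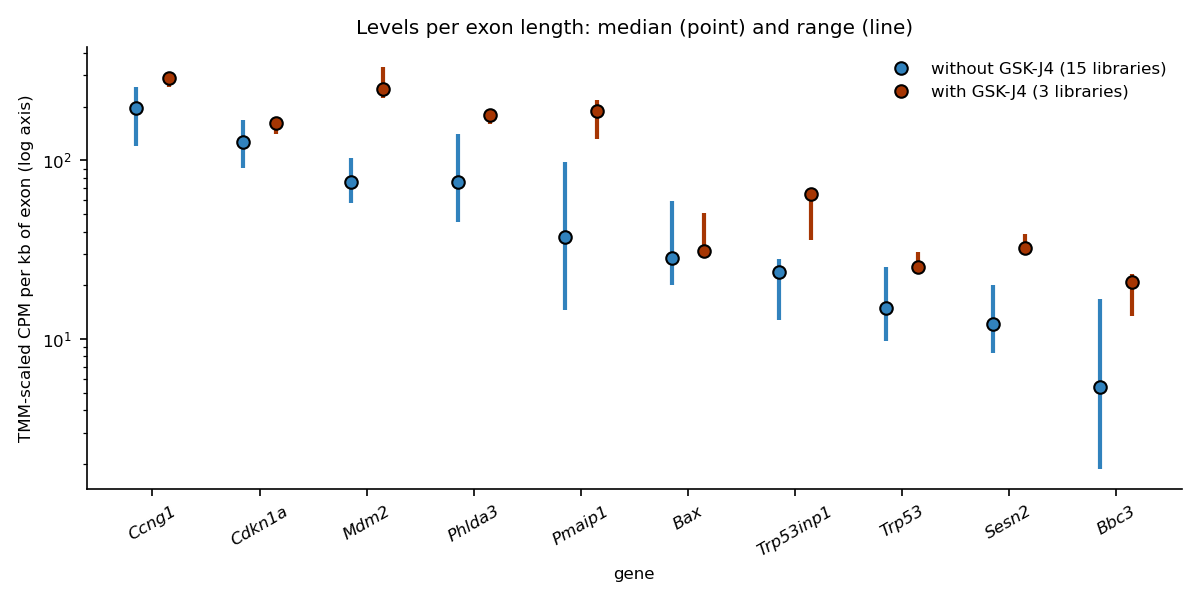
TMM-scaled CPM per kb of exon (log axis) for each member, as median (point) and range (line) over the 15 libraries without GSK-J4 and the 3 with it. Mdm2 moves from a median of 76.0 to 249.8 CPM per kb, while the range of Cdkn1a with GSK-J4 lies inside that without it, at medians of 127 and 162.

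Across the groups, the GSK-J4 libraries had the highest mean for all 10 members. For 6 of them (Mdm2, Pmaip1, Trp53inp1, Phlda3, Ccng1 and Sesn2) each GSK-J4 library exceeded each of the other 15, by a margin of 906.6 against 905.2 CPM for Ccng1. For Trp53 the lowest treated library, at 101 CPM, was below Mettl3 CKO replicate 2. Below the GSK-J4 group, neighbouring groups in the order of means overlapped for every member, with the exception of Pmaip1, which was at 183 CPM or more in the Mettl3 line and at 112 CPM or less in the Mettl14 line. The summed level of the 10 members was 4208 to 4570 CPM with GSK-J4 and 1499 to 2444 CPM in the other 15 libraries. In those 15 libraries the members did not vary as a block: over the 45 pairs, Pearson's r of log2(CPM + 1) ran from -0.64 for Bax and Trp53inp1 to 0.88 for Trp53inp1 and Ccng1, with a median of 0.01. These libraries share lines, depth differences and treatment.

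The 3 genes most like Mdm2 over all 18 libraries, out of 8989 protein-coding genes with a mean of at least 10 CPM, were Tmpo (r = 0.94), Gtf3c4 (r = 0.93) and Tgif1 (r = 0.93). Over the 15 libraries without GSK-J4 they were Map3k2 (r = 0.87), Atad2 (r = 0.86) and Sec23ip (r = 0.86), so neither set shares a gene with the other. For Cdkn1a they were Ndufa4 (r = 0.85), Sgf29 (r = 0.84) and Slc35e4 (r = 0.83) over 18 libraries, and Gnai2, Capns1 and Hoxb6 (each r = 0.91) over 15. These are the highest of many correlations over few libraries and are given as a description.

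A longer list of 40 other p53 target genes held calls in both directions with GSK-J4. Against the untreated CKO 7 were called higher (3.96% of all genes) and 5 lower (9.07% of all genes, near the list's own share), 26 had a positive log2 change, and the list's median was 0.52. The higher calls with the smallest p were, in order, Epha2, Dusp5 and Btg1. Dusp5, a nuclear phosphatase of ERK, was at 75.1, 84.4 and 57.6 CPM against 10.05, 17.5 and 6.28 CPM in the CKO, a rise of 2.78 ± 0.43 (adjusted p = 0.00187). Epha2, an ephrin receptor, was at 120.5, 131 and 123 CPM against 39.4, 48.3 and 49.6 CPM, a rise of 1.54 ± 0.22 (adjusted p = 0.00113). Btg1, an antiproliferative gene, was at 322, 225 and 358 CPM against 127, 139.6 and 130.04 CPM, a rise of 1.28 ± 0.21 (adjusted p = 0.00242). The groups did not overlap for any of these.

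The lower calls with the smallest p were Steap3, Gdf15 and Ptprv. Steap3, an endosomal ferrireductase gene, was at 8.37, 15.8 and 10.8 CPM with GSK-J4 against 70.2, 60.1 and 56.7 CPM, and fell by 2.32 on the log2 scale (adjusted p = 0.00106). Gdf15, a secreted stress cytokine that is a target of both p53 and CHOP, had 0, 4 and 0 counts with GSK-J4 against 12.4, 11.4 and 8.70 CPM in the CKO (adjusted p = 0.00719). Ptprv had 0, 80 and 1 counts against 75.7, 49.3 and 62.0 CPM (adjusted p = 0.0204). Against the Mettl3 controls the list again gave 7 higher and 5 lower (3.16% and 8.25% of all genes), with Eda2r and Btg2 in place of Aen and Ei24 among the higher. By p the first of the higher were Epha2 (2.04 ± 0.22, adjusted p = 0.000219), Btg1 (1.17 ± 0.21, adjusted p = 0.00453) and Plk2, a polo-like kinase gene (1.36 ± 0.26, adjusted p = 0.00683). The first of the lower were Steap3, which fell by 2.37 (adjusted p = 0.00104), Gdf15 (adjusted p = 0.00646) and Tnfaip8, which fell by 2.76 (adjusted p = 0.0128). Of the regulators, Trp53bp2 was again called higher (0.99 ± 0.26, adjusted p = 0.0307) and Cdkn2a lower (-2.63 ± 0.25, adjusted p = 9.01e-05), and of the BCL-2 family Bmf and Bok were again called lower. In the knockout and GSK343 comparisons 0 of the 40 were called by edgeR, where 1 or 2 reached an unadjusted p under 0.05. By DESeq2 or limma voom the call was 1 gene with GSK343 against the Mettl14 controls and 0 in the others. Over all genes edgeR called 0% in each knockout, 0.0288% with GSK343 against the CKO and 0.166% against the controls. The shares at that unadjusted p were 1.50% for the Mettl14 CKO and 1.88% for the Mettl3 CKO. With GSK343 they were 5.74% against the CKO and 4.34% against the controls.

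**Figure D4:**
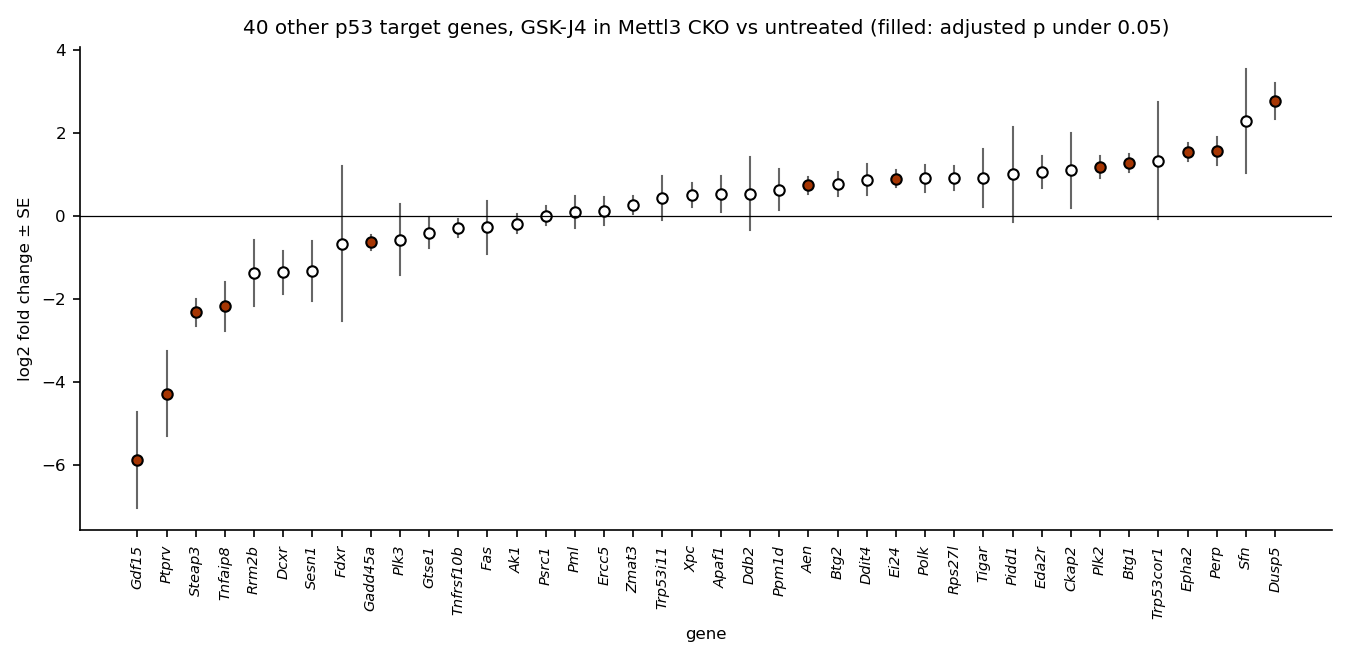
log2 fold change ± SE of 40 other p53 target genes with GSK-J4 against the untreated Mettl3 CKO, in rising order, filled where the adjusted p over all genes was under 0.05. The 5 filled points on the lower side include Gdf15 and Ptprv, and the 7 on the upper side end with Dusp5 at 2.78.

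In the difference between the inhibitor effects, 4 of the 40 were called higher (1.92% of all genes) and 3 lower (8.30% of all genes, near the list's own share). The 3 lower were Steap3, Gdf15 and Ptprv, and by p the first of the 4 higher were Btg1 (1.17 ± 0.29, adjusted p = 0.0111), Ei24 (1.05 ± 0.31, adjusted p = 0.0352) and Dusp5 (2.37 ± 0.71, adjusted p = 0.0366). On the regulator list Trp53bp2 was called higher, and Cdkn2a and Zbtb7a, a transcriptional repressor, lower. On the BCL-2 family list Bmf and Bok were called lower.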

How the data were processed

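The authors deposited 1 table of raw counts per library, with reads counted per gene identifier. CASAVA, Trimmomatic 0.38, HISAT2 2.1.0, HTSeq and the build mm10 are named in the submitters' processing notes. Libraries came from a stranded kit per the labels' protocols, and whether strand was used in counting is not given in the sources used here. Of 54446 identifiers 54409 matched GENCODE M21, which gave symbols, positions and exon lengths.

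From these counts, edgeR 4.0.16 (filterByExpr, TMM scaling, quasi-likelihood F test, Benjamini-Hochberg over all genes tested) was fitted to the 9 libraries of each line, and to all 18 for comparisons across lines, with a gene called at an adjusted p under 0.05. Printed levels use TMM over all 18 libraries. Alternatives were DESeq2 1.42.0, limma 3.58.1 (voom with quality weights), other scalings, no filter, thinning, a replicate block and leaving out libraries. The tests were checked on simulated data. Depth of 721853 to 32540164 counts limits the precision of low genes such as Bbc3. Promoters are from RefSeq, and figures were drawn with matplotlib.

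The members and the gene lists were chosen with earlier results of these data known. Named genes are the members, the targeted genes, Mdm4, Ppm1d, 4 stress genes, the nearest genes to Mdm2 and Cdkn1a by correlation, and from each p53-related list all called genes where 6 or fewer were called, otherwise the 3 with the smallest p in each direction. Eda2r, Btg2, Aen and Ei24 in 1 sentence, and Fn1, were named after their values were seen.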

Additional observations from a re-analysis of the deposited data

Results flagged for a closer look

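Mdm2 differed between the inhibitor effects: its change with GSK-J4 in the Mettl3 CKO exceeded its change with GSK343 in the Mettl14 CKO by 1.57 ± 0.32 on the log2 scale (adjusted p = 0.00237 for the interaction in edgeR over all 18 libraries). Each change was taken against 3 untreated libraries of its own line, Mdm2 being higher in 3 of 3 GSK-J4 libraries and overlapping with GSK343. Over 9 other settings the difference ran from 1.36 to 1.74, and over 12 omissions of 1 library from 1.38 to 1.76. Inhibitor and line cannot be told apart.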

How the results depend on the processing

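The 6 members called with GSK-J4 against the untreated CKO became 5 to 8 under 9 other settings and 4 to 6 without 1 library. Against the controls, 6 became 4 to 8 under the settings and 3 to 7 without 1 library. The difference between inhibitor effects was called for 1 member, against 4 by DESeq2 and with thinned libraries, 3 with DESeq2's size factors and with library totals, 2 without the low-count filter, with the replicate block and with the pair of shallowest libraries left out (chosen after seeing the data), and 1 to 3 without 1 library. The counts of 0 and the single call between the controls did not move under any alternative run. Of the 90 changes (10 members in 9 comparisons), 34 turned sign under at least 1 alternative, 0 of them called by edgeR: 0 with GSK-J4 against the CKO, 2 with GSK-J4 against the controls, 2 between the controls, 1 in the inhibitor difference, and the others in the knockout and GSK343 comparisons. Bbc3 with GSK343 became -0.062 without GSK343 replicate 3 and -0.20 without the shallowest pair, over a range of -0.062 to 1.68 for 1 library left out. Against the controls Cdkn1a with GSK-J4 ran from -0.030 to 0.21 and Bax from -0.17 to 0.33 for 1 library left out. The difference between inhibitor effects for Cdkn1a ran from -0.14 to 0.25. The cause was not tested.

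Replicate numbers did not pair the libraries: deviations of same-numbered libraries correlated at -0.12 to 0.10 over 18 pairs, 1 of them above 0.1. With the replicate block, 5 members were called with GSK-J4 against the CKO and 4 against the controls. Bbc3 lost its call against the CKO (1.91, adjusted p = 0.0665). Of the 40 other p53 targets, 12 were called with GSK-J4 against the CKO by edgeR, 16 by DESeq2 and 7 by limma voom. By edgeR 13.0% of all genes were called there. Over all genes, 2186 calls with GSK-J4 against the CKO became 1407 with the block, 977 with only the groups compared, 3373 with all 18 libraries and 3700 by DESeq2. The lowest count of any member was 6, for Bbc3 in Mettl14 CKO replicate 3. In the Mettl3 line Bbc3 had 164 to 457 counts in controls, 201 to 368 in the CKO and 212 to 288 with GSK-J4. Why its calls there were lost was not tested.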
